A study of Mus musculus with 3 samples.

Results

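The proteasome subunit genes of mouse erythroblasts are described here, taken as every gene whose symbol is Psm, a letter from a to g and a number. The rule was applied to the symbol column of both deposited tables, joined by gene ID, and found 46 genes of the 15058 listed, all 46 of them in both tables. Erythroblasts are the nucleated precursors of red blood cells, and these were sorted from the peripheral blood of embryos at E10.5 on their surface proteins CD71, through which iron enters, and Ter119, which marks the red lineage. RNA was sequenced from 3 libraries, 1 per group. The first, called Drosha-null here, held CD71+ Ter119-high cells of Drosha fl/fl;cdh5-cre+ embryos (conditional knockout, cKO), with a Drosha abundance labelled null. The second, called Ter119-low, held CD71+ Ter119-low cells of embryos of that same genotype, with a Drosha abundance labelled like that of the wild type. The control held CD71+ Ter119-high cells of embryos labelled Drosha fl/fl or Drosha fl/+, with a wild-type Drosha abundance. The design text describes blood of 5 embryos pooled for RNA.

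Cdh5 is an endothelial gene, so its Cre acts in endothelium and in blood cells that arise from it, and a sort on Ter119 splits cKO cells by maturity as well as by their Drosha label. Gate and Drosha status therefore cannot be told apart between the cKO libraries. Each library is 1 pool, so differences below have no replicate check, and no test across conditions was possible. In bulk RNA, fewer cells of a type and less RNA per cell cannot be told apart.

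The 26S proteasome is the main protein-degrading machine of the cytosol and nucleus. Its barrel, the 20S core particle, is built of rings of alpha subunits, which gate the entry, and rings of beta subunits, a few of which cut peptide bonds. The 19S regulatory particle caps the barrel: its base holds a ring of ATPases that unfold the substrate, and its lid removes the ubiquitin chain that marked it. Other caps activate the barrel without ubiquitin, dedicated chaperones assemble the particle, and inducible catalytic subunits replace the constitutive ones in immune cells. In maturing red cells the ubiquitin-proteasome system is known for clearing proteins that the finished cell does not keep.

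Total counts were 9325814 in the Drosha-null, 9418474 in the Ter119-low and 9497425 in the control library. Counts were scaled by TMM (trimmed mean of M values), ratios are on the log2 scale with 0.5 counts added, and intervals are exact 95% Clopper-Pearson intervals that cover counting error only. A gene was measured in a comparison when it reached 1 CPM (counts relative to scaled library size) in either library, and it was called higher or lower when it differed by 2-fold or more and its interval excluded a ratio of 1. Drosha, the label check, had 122 counts in the Drosha-null, 244 in the Ter119-low and 324 in the control library. Its log2 ratio was −1.81 (−2.13 to −1.51) in Drosha-null over control and −0.49 (−0.74 to −0.25) in Ter119-low over control. Counts over the whole gene take in reads outside a deleted part. Where the Drosha counts left in the Drosha-null library came from was not tested. The 12 erythroid markers all had counts in every library and summed to 142000, 242000 and 279000 CPM in the Drosha-null, Ter119-low and control libraries. Summed markers of other cells were low throughout, at 29.0, 6.62 and 8.93 CPM for 8 cardiac genes, 23.1, 11.1 and 10.7 CPM for 9 endothelial genes and 11.6, 7.63 and 8.09 CPM for 6 mesenchymal genes, in the same order of libraries. The 8 listed macrophage markers of 12 summed to 5.83, 2.81 and 6.31 CPM, with Emr1, C1qb, C1qc and Mrc1 at 0 in the Ter119-low library, and the 5 listed megakaryocyte markers of 6 to 12.4, 13.4 and 11.7 CPM. Of these lists, Myh6 and the megakaryocyte genes Pf4 and Ppbp were at 0 in the Drosha-null library, Tnnt2, Myh6, Smyd1, Tie1, Lum, Ppbp and Gp1bb in the Ter119-low library, and Myh7, Nppa, Smyd1 and Gp1bb in the control. Cardiac, endothelial and mesenchymal sums were thus highest in the Drosha-null library. The 12 erythroid markers all stood below 0 in Drosha-null over control by TMM (median −1.02, 6 called lower), and 11 of 12 did by total counts (median −0.58). The part of these differences in the results below was not tested.

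Together the 46 genes had 3680 scaled CPM in the Drosha-null, 4250 in the Ter119-low and 4350 in the control library. Without ribosomal RNA genes in the total, they took 0.6094% of the counts in the Drosha-null (0.6036% to 0.6153%), 0.5622% in the Ter119-low (0.5566% to 0.5679%) and 0.5396% in the control library (0.5341% to 0.5452%, exact binomial intervals). That order turned round when globin genes were left out as well, to 0.7985%, 0.8307% and 0.8313%, where the intervals of the Ter119-low and control libraries overlapped. Globins took 17.1% of all counts in the Drosha-null, 23.1% in the Ter119-low and 25% in the control library.

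Levels can be set beside each other between genes only per length, so the authors' FPKM (fragments by gene length and library size) are used for that. The 31 subunits of the 26S particle other than the testis form Psma8 spanned 24.1 to 187.71 FPKM in the Drosha-null, 20.21 to 179.76 in the Ter119-low and 19.54 to 193.43 in the control library. The 14 genes of the 20S core particle lay above the 17 of the 19S particle in general, with medians of 136 FPKM for the 20S and 59.3 FPKM for the 19S genes in the Drosha-null library, 119 and 55.9 FPKM in the Ter119-low library, and 118 and 50.2 FPKM in the control. The ratio of the 20S median to the 19S median was 2.29, 2.14 and 2.35 in those libraries. The order of the subunits was much alike in each library. Across these 31 genes the log2 FPKM of the Drosha-null and control libraries had a Pearson correlation of 0.961 (Spearman 0.946), those of the Ter119-low and control libraries 0.991 (0.980), and those of both cKO libraries 0.972 (0.972). These are descriptions across genes of single libraries, which share gene lengths and, for the first 2 values, the control. The highest transcript was Psmb7 in the Drosha-null library and Psma5 in the Ter119-low and control libraries. The lowest was the lid gene Psmd3 in both cKO libraries (24.1 and 20.21 FPKM), beside 20.58 FPKM in the control, where Psmd13 was lowest at 19.54 FPKM.

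**Figure D1:**
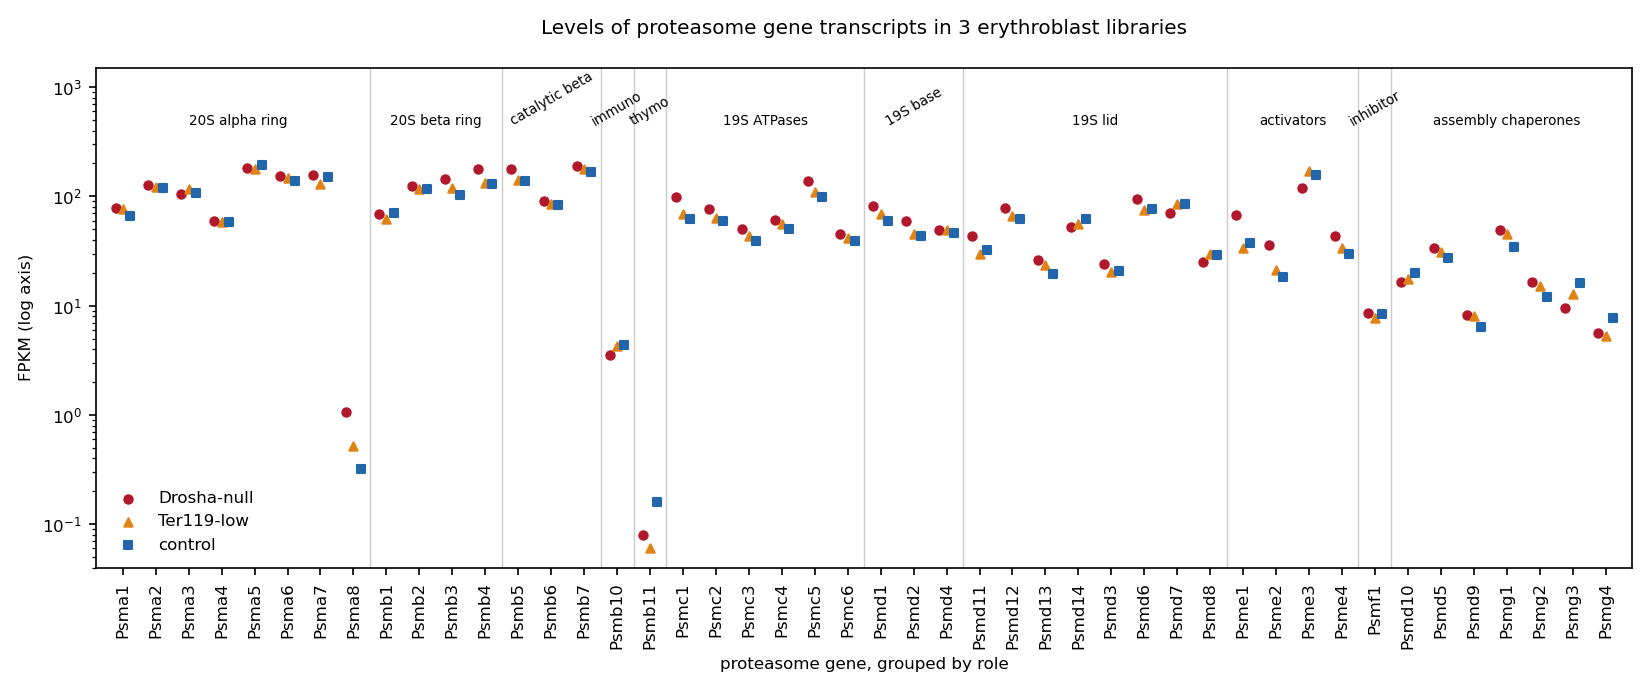
FPKM (log axis) of the 46 proteasome genes, grouped by role, with 1 point per library and no error bars since each group is 1 library. The 31 subunits of the 26S particle lie between 19.54 and 193.43 FPKM, while Psma8 and Psmb11 stay at or under 1.06 FPKM.

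Between the Drosha-null and control libraries, which come from the same gate and differ in their Drosha label, the proteasome genes differed little, and in most cases slightly downward. Of 45 measured genes, 0 were called higher and 1, the assembly chaperone gene Psmg3, was called lower. Among all 10769 measured genes 12.4% were called higher and 7.79% lower, together 20.2% in either direction. Calls were fewer among abundant genes: of the 2525 at 50 or more CPM in any library 5.15% were called higher and 5.03% lower, and of the 32 proteasome genes at that level 0 and 0. Their median log2 ratio was −0.19, against −0.02 for all measured genes and −0.12 for the 2525 abundant genes. Below 0 stood 34 of the 45 (75.6%), against 51.1% of all measured genes and 58.7% of those at 50 or more CPM. The middle 50% of the proteasome genes spanned −0.41 to 0.00, narrower than the −0.47 to 0.52 of all measured genes. That of the 2525 abundant genes, −0.45 to 0.22, lay between these in width. The sign of the list depends on the scaling: by total counts the median of all measured genes moved to 0.43 and that of the proteasome genes to 0.24, with 34 above 0 and 11 below. The median of the 2525 abundant genes was then 0.32. The proteasome median lay 0.18 below the all-gene median by TMM.

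Over the 31 subunits of the 26S particle the SD of the log2 ratios was 0.24, with a median counting SD of 0.06. Variation between pools, which 1 library per group cannot show, is not part of that counting SD. Intervals lay wholly above 0 for 4 of the 45 genes (8.89%: Psmc1, Psme1, Psme2 and Psme4), against 29.1% of all measured genes. They lay wholly below 0 for 25 (55.6%), against 30.8%. Counting intervals narrow as counts rise, so more abundant genes exclude 0 more readily. The share among abundant genes alone was not computed for intervals, nor for the 1.5-fold rule below. With a 1.5-fold rule in place of 2-fold, 0 genes were called higher, against 19.5% of all measured genes. By that rule 8 (17.8%) were called lower, against 17.6%: Psmb10, Psmd7, Psmd8, Psmd10, Psmd14, Psme3, Psmg3 and Psmg4.

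**Figure D2:**
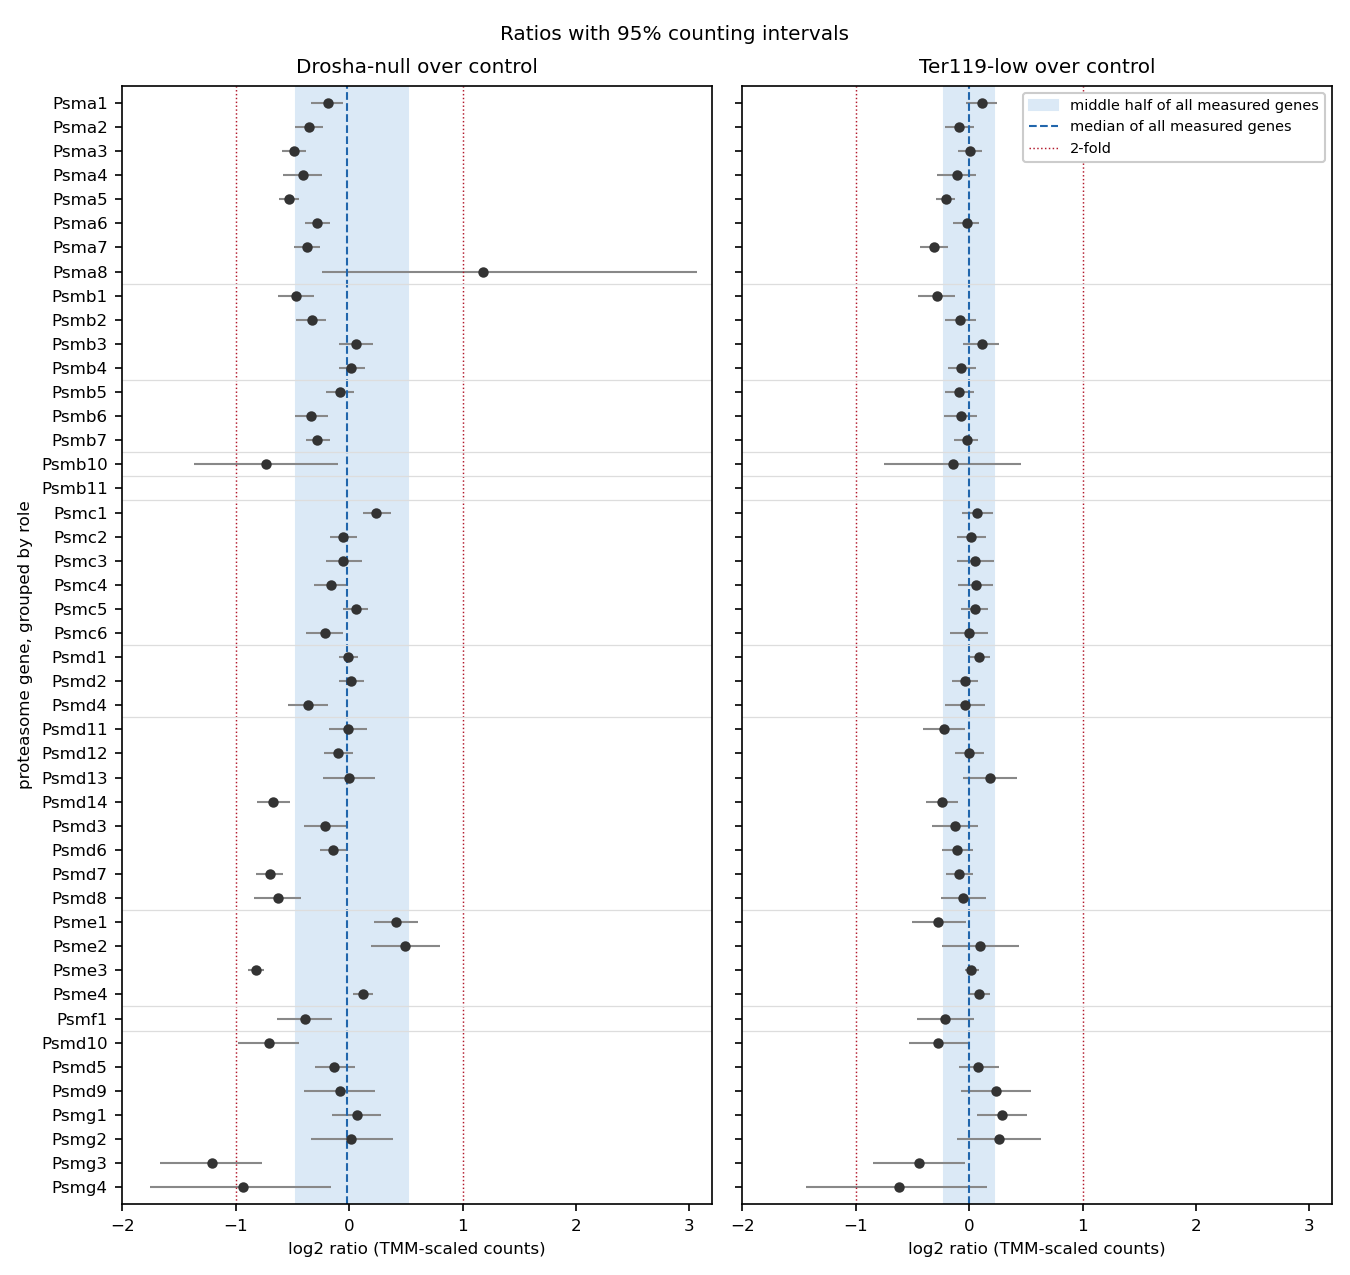
Log2 ratios of the proteasome genes by role, Drosha-null over control on the left and Ter119-low over control on the right, with points for genes and bars for 95% counting intervals. The shaded band spans the middle 50% of all measured genes, from −0.47 to 0.52 on the left and −0.22 to 0.22 on the right. For genes at 50 or more CPM, not drawn, it would span −0.45 to 0.22 and −0.12 to 0.11. Psmg3, at −1.21 on the left, is the single gene past 2-fold whose interval excludes 0.

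The alpha ring forms the gate of the barrel. Its 7 constitutive genes all stood below 0 in the Drosha-null library relative to the control, between −0.53 for Psma5 and −0.19 for Psma1. Psma5 had 1940 counts in the Drosha-null, 1945 in the Ter119-low and 2114 in the control library, which scaled to 174, 218 and 252 CPM (Drosha-null over control −0.53, interval −0.62 to −0.44). It was thus lowest in the Drosha-null library once scaled, although its raw counts in the cKO libraries were nearly equal. Psma3, Psma4, Psma7, Psma2 and Psma6 stood at −0.49, −0.41, −0.37, −0.35 and −0.28. By total counts 6 of the 8 alpha genes stood above 0 instead, among them Psma8. Psma8, which replaces Psma7 in the testis, was rare in each library, with 16, 8 and 5 counts in the Drosha-null, Ter119-low and control libraries. Its ratio to the control of 2.26 had a log2 interval of −0.24 to 3.07 and was not called.

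The beta ring, which carries the active sites, was split. Psmb3 and Psmb4, which hold no active site, stood at 0.06 and 0.02 in Drosha-null over control, with intervals that included 0, and Psmb1 and Psmb2 at −0.47 and −0.33. Psmb1 had 625 counts in the Drosha-null, 570 in the Ter119-low and 653 in the control library (56.1, 64.0 and 77.7 CPM). Psmb3 had 891, 736 and 645 counts (80.0, 82.6 and 76.8 CPM), so that scaled levels of Psmb1 were highest in the control and those of Psmb3 lowest there. Of the catalytic subunits, Psmb5, the chymotrypsin-like site, had 120 CPM in the Drosha-null, 119 in the Ter119-low and 127 in the control library (−0.08, interval −0.20 to 0.04). Psmb6, the caspase-like site, had 72.8, 87.4 and 91.9 CPM (−0.34, −0.48 to −0.19). Psmb7, the trypsin-like site, had 141, 168 and 171 CPM (−0.28, −0.38 to −0.17). All 3 stood below 0, Psmb5 least, but above 0 by total counts, where their median was 0.16.

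Psmb10 and Psmb11, an inducible and a thymus-restricted catalytic subunit, were scarce. Psmb10, the interferon-inducible counterpart of Psmb7, had 40 counts in the Drosha-null, 48 in the Ter119-low and 50 in the control library (3.59, 5.39 and 5.95 CPM). In Drosha-null over control its log2 ratio was −0.73 (−1.37 to −0.10). Per length, Psmb10 reached 1.90% of the FPKM of Psmb7 in the Drosha-null, 2.39% in the Ter119-low and 2.60% in the control library, so the constitutive subunit dominated in each. Psmb11, the thymus-specific subunit, had 3, 2.46 and 6.19 expected counts, near the floor of 3 counts, and was under 1 CPM in all libraries. It lies 7314 bases from Psmb5 on chromosome 14. The other inducible subunits, Psmb8 and Psmb9, were not analysed here.

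The 6 genes of the ATPase ring had a median of −0.05 in Drosha-null over control, near that of all measured genes, and a range of −0.21 to 0.24. Psmc1 was the highest gene of the 26S particle. It had 1320 counts in the Drosha-null, 937 in the Ter119-low and 840 in the control library, or 118, 105 and 100 CPM (0.24, interval 0.12 to 0.37). Psmc6, the lowest of the ring, had 56.6, 65.6 and 65.7 CPM (−0.21, −0.38 to −0.05). Psmc5, the most abundant ATPase transcript, stood at 0.06, Psmc2 and Psmc3 at −0.05 each, and Psmc4 at −0.16. By total counts all 6 stood above 0, with a median of 0.39 beside the all-gene median of 0.43.

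In the rest of the base, the large scaffold subunits Psmd1 and Psmd2 were nearly level with the control and the ubiquitin receptor Psmd4 was not. Psmd1 had 216, 231 and 217 CPM in the Drosha-null, Ter119-low and control libraries (−0.01, −0.09 to 0.08). Psmd2 had 146, 140 and 144 CPM (0.02, −0.09 to 0.13). Psmd4 had 48.7, 61.1 and 62.6 CPM (−0.36, −0.54 to −0.19). By total counts all 3 stood above 0.

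The lid fell into separate ranges. Psmd14, the deubiquitinase of the lid, had 735 counts in the Drosha-null, 790 in the Ter119-low and 879 in the control library (66.0, 88.7 and 105 CPM), with a log2 ratio to the control of −0.67 (−0.81 to −0.52). Psmd7, its partner in the catalytic pair, had 1011, 1239 and 1241 counts (90.7, 139 and 148 CPM; −0.70, −0.82 to −0.58). Psmd8 had 343, 410 and 401 counts (30.8, 46.0 and 47.7 CPM; −0.63, −0.84 to −0.42). These 3 genes had fewer raw counts in the Drosha-null library than in either other library, so that they also stood below 0 by total counts. The 5 remaining lid genes lay between −0.21 (Psmd3) and 0.00. Psmd13, the highest of them, had 33.0, 37.5 and 33.1 CPM, and Psmd11, Psmd12 and Psmd6 stood at −0.01, −0.10 and −0.14.

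The activator genes differed in both directions. Psme1 and Psme2 encode PA28 alpha and beta, the cap of the cytosol that is known to be induced by interferon gamma, and Psme3 encodes PA28 gamma, the related nuclear cap. Psme1 had 576 counts in the Drosha-null, 287 in the Ter119-low and 326 in the control library (51.7, 32.2 and 38.8 CPM), with a log2 ratio of 0.41 to the control (0.22 to 0.61). Psme2 had 259, 158 and 139 counts (23.2, 17.7 and 16.5 CPM; 0.49, 0.19 to 0.80). Both were highest in the Drosha-null library by raw and by scaled counts. Psme3 had 2828, 4065 and 3771 counts (254, 456 and 449 CPM; −0.82, −0.89 to −0.75), the lowest level by either count in the Drosha-null library. None of them passed 2-fold.

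The PA28 genes were also set against each other within a library, where scaling cancels. These ratios combine the opposite differences given above and are not a further result. The FPKM ratio of Psme1 to Psme3 was 0.573 in the Drosha-null, 0.199 in the Ter119-low and 0.243 in the control library, and that of Psme2 to Psme3 was 0.299, 0.125 and 0.119. Psme3 remained the most abundant of the 3 genes per length in every library, at 118.75, 168.88 and 155.26 FPKM. Psme4, which encodes the nuclear activator PA200, had 233, 227 and 214 CPM (0.12, 0.03 to 0.21).

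Psme1 and Psme2 lie 5912 bases apart on chromosome 14, on opposite strands and pointing towards each other. The 250 bases before the annotated start of these genes, of Psme3, and of Psmc1 are shown because these members stood highest and lowest among the activators and highest in the 26S particle. They are from RefSeq on GRCm38.p6, 5′ to 3′ along each gene, and capitals mark every match to the motifs searched, listed after them.
Psme1: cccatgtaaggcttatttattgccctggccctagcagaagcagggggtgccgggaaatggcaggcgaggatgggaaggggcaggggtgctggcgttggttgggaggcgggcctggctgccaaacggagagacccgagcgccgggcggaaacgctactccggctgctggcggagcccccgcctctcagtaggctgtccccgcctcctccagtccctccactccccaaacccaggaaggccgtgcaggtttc
Psme2: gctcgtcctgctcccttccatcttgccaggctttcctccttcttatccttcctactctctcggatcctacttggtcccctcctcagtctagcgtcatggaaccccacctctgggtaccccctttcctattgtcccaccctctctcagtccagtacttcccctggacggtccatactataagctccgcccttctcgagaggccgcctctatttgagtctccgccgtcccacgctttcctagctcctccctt
Psme3: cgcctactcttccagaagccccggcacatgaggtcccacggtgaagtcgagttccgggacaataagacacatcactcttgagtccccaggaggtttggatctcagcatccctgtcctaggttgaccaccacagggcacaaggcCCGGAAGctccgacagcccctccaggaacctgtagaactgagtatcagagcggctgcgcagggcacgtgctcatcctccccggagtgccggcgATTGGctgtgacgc
Psmc1: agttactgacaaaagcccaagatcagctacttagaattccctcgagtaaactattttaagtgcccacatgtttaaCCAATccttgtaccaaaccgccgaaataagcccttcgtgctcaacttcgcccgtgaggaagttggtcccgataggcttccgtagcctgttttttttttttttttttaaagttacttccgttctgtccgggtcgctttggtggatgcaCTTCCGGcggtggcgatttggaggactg
They span chr14:55578244-55578493 (plus strand), chr14:55591102-55591351 (minus strand), chr11:101315963-101316212 (plus strand) and chr12:100109952-100110201 (plus strand).

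The 6 motifs searched, on both strands, were TGANNNNGC (the core of the antioxidant response element, which Nfe2l1 and Nfe2l2 are known to bind), CCGGAAG (ETS factors), CCAAT (NF-Y), the core of the interferon-stimulated response element, TTCNNNGAA (STAT factors) and the palindromic core bound by the nuclear respiratory factor. Psme3 and Psmc1 held CCGGAAG and CCAAT in these windows, and Psme1 and Psme2 held none of the 6. A second annotated start of Psme2 held TGANNNNGC. Of the 46 proteasome genes 38 had a promoter in the table, counted over all their annotated starts. CCGGAAG was in 9 of 25 genes of the 26S particle (36%), against 17.0% of the genes at 1 or more CPM and 7.83% of all genes in the table. The nuclear respiratory factor motif was in 6 of the 25 (24%), against 10.3% and 4.23%. TGANNNNGC was in 9 of the 25 (36%), against 41.5% and 38.7%, and CCAAT in 10 of the 25 (40%), against 41.9% and 37.5%. The interferon-stimulated element was in 2 and TTCNNNGAA in 0 of the 25, against 2.78% and 6.79% of the genes at 1 or more CPM. The motifs can overlap, and a match is a string of letters and not a shown binding site.

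The assembly chaperones held the one gene called with TMM. That call was lost by total counts, by FPKM, which is nearly the same scaling, and with the correction for gene length described below. Psmg3, part of a chaperone pair with Psmg4 that helps to build the alpha ring, had 68 counts in the Drosha-null, 93 in the Ter119-low and 119 in the control library (6.10, 10.4 and 14.2 CPM). Its log2 ratio to the control was −1.21 (−1.67 to −0.77), a ratio of 0.432. Its partner Psmg4 had 24, 24 and 35 counts (2.15, 2.69 and 4.17 CPM; −0.94, −1.76 to −0.16), under the 2-fold rule. Both were highest in the control. The other chaperone pair of the alpha ring, Psmg1 and Psmg2, stood at 0.07 (−0.15 to 0.28) and 0.02 (−0.34 to 0.39), with 38.8, 45.2 and 37.0 CPM for Psmg1 in the Drosha-null, Ter119-low and control libraries. Of the chaperones of the ATPase ring, Psmd10 had 18.8, 25.6 and 30.8 CPM (−0.71, −0.98 to −0.44), while Psmd5 and Psmd9 stood at −0.13 and −0.08 with intervals that included 0. Psmf1, which encodes the inhibitor PI31, had 25, 28.4 and 32.8 CPM (−0.39, −0.64 to −0.15; 0.04 by total counts). By total counts Psmg3, Psmg4 and Psmd10 still stood below 0.

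Proteasome genes are short, and the ratios of all genes in this comparison moved with gene length. The median length of the 46 genes was 1374 bases, against 2764 for all genes listed. Of the 45 measured, 17 were in the shortest of 10 equal bins of measured genes by length, where the median of all genes was −0.59, and 15 in the next bin, at −0.28. The proteasome genes in those bins had medians of −0.28 and −0.36. With the median of the same bin subtracted, the list median became 0.11, with 29 genes above 0 and 16 below. The 2525 genes at 50 or more CPM then had a median of −0.15. The 20S genes then had a median of 0.24 and the 19S genes one of 0.07, whereas uncorrected they stood at −0.33 and −0.10. Psme1, Psme2 and Psmc1 stood at 1.0, 1.07 and 0.53 on that scale, and Psme3, Psmd7, Psmd14, Psmd8, Psmg3 and Psmg4 at −0.83, −0.42, −0.38, −0.35, −0.62 and −0.36. The signs of these 9 genes were therefore the same as before the correction, while that of the list was not. Other genes named above changed sign. Of the 20S genes below 0 before the correction, Psma3 and Psma5 alone stayed below it, at −0.20 and −0.25. Psmb5, Psmb6 and Psmb7 moved above 0, to 0.51, 0.25 and 0.31, and Psme4 moved from 0.12 to −0.17.

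**Figure D3:**
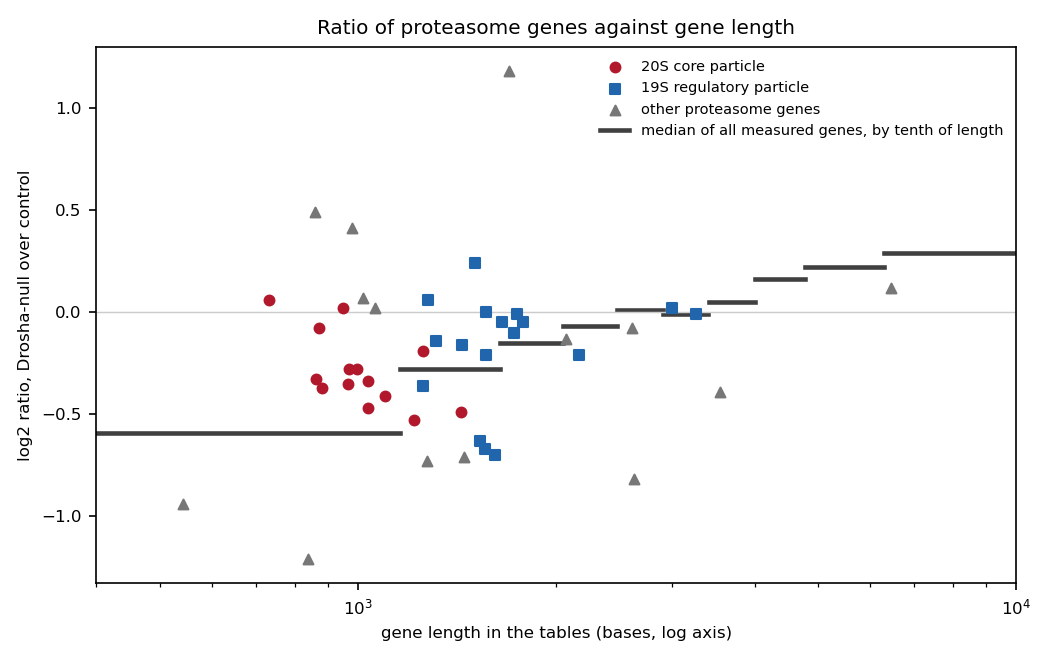
Log2 ratio, Drosha-null over control, of the measured proteasome genes against their length in bases (log axis), with horizontal bars for the median of all measured genes in each of 10 bins of length. Of the 14 genes of the 20S particle 12 lie above the bar of their bin, and Psme3, Psmg3 and Psmg4 lie below theirs.

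The second comparison sets the Ter119-low cKO cells, labelled with a wild-type abundance of Drosha, beside the same control library. These libraries differ in gate and in genotype, which cannot be told apart here. Drosha itself stood at −0.49 (−0.74 to −0.25). Of 44 measured proteasome genes, 0 were called higher and 0 lower, where all 10591 measured genes held 2.90% and 2.76%, together 5.66%. Of the genes at 50 or more CPM in any library 0.238% were called in either direction, so that 0 calls among the 32 proteasome genes at that level is near the share of like genes. With a 1.5-fold rule the counts were also 0 and 0, against 5.13% and 4.9%. The median log2 ratio was −0.04, against 0.00 for all measured genes. The middle 50% spanned −0.13 to 0.06, against −0.12 to 0.11 for the genes at 50 or more CPM. By total counts the median was 0.06, against 0.10 for all. The SD over the 31 subunits of the 26S particle was 0.12, with a median counting SD of 0.07. Intervals wholly above 0 were held by Psmd1 and Psmg1 (4.55%), and wholly below 0 by 8 genes (18.2%), against 13.5% and 14.2% of all measured genes.

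The chaperone genes stood farthest apart. Psmg4 stood at −0.62 (−1.44 to 0.16), Psmg3 at −0.44 (−0.85 to −0.04) and Psmg1 at 0.29 (0.07 to 0.51). Psma7 had 112 CPM in the Ter119-low and 139 in the control library (−0.31, −0.43 to −0.19), Psmb1 stood at −0.28 and Psmd14 at −0.24. The ATPase ring lay between 0.00 and 0.07. Psme3 stood at 0.02 (−0.04 to 0.09), Psme1 at −0.27 (−0.50 to −0.03), Psme2 at 0.10 (−0.24 to 0.44), Psmd7 at −0.09 and Psmd8 at −0.05. This comparison and the first share the control library, so their values are given side by side and not as independent evidence.

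The third comparison sets the cKO libraries beside each other, Drosha-null over Ter119-low. Of 45 measured proteasome genes 0 were called higher and 0 lower, against 10.8% and 5.94% of 10795 measured genes, together 16.8%. Of the genes at 50 or more CPM in any library 7.37% were called in either direction, and of the 32 proteasome genes at that level 0. With a 1.5-fold rule 1 gene, Psme1, was called higher, against 18.2%, and 3 (Psmd7, Psme3 and Psmg3) lower, against 14.8%. The median was −0.21, against −0.02 for all measured genes, and by total counts it was 0.13, against 0.33. For the genes at 50 or more CPM the medians were −0.13 by TMM and 0.21 by total counts. Psme1 was the highest, at 0.68 (0.48 to 0.89, a ratio of 1.60), and Psme2 stood at 0.39 (0.10 to 0.68). Psme3 was the lowest, at −0.85 (−0.92 to −0.78), followed by Psmg3 at −0.77 (−1.25 to −0.31), Psmd7 at −0.62 (−0.74 to −0.50), Psmd8 at −0.58 (−0.79 to −0.37) and Psmb10 at −0.58 (−1.23 to 0.05). Psme1 and Psme2 on one side and Psme3, Psmd7 and Psmd8 on the other thus stood apart here too, but this comparison and the first share the Drosha-null library. Psmd11 was the highest lid gene here, at 0.21 (0.04 to 0.38), and Psmc1 the highest ATPase gene, at 0.17 (0.05 to 0.29). Intervals lay wholly above 0 for 4 genes (8.89%) and wholly below 0 for 23 (51.1%), against 27.4% and 29.4% of all measured genes. Here too the share among abundant genes alone was not computed.

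**Figure D4:**
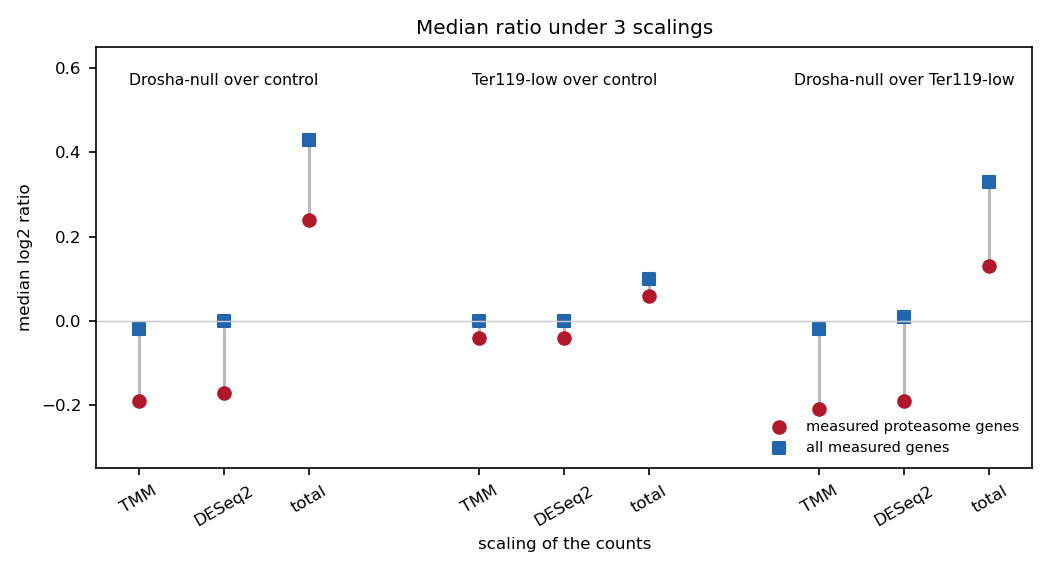
Median log2 ratio of the measured proteasome genes (circles) and of all measured genes (squares) in each comparison, under TMM, DESeq2 size factors and total counts. The proteasome median lies below the all-gene median in each of the 9 pairs, while its sign turns from −0.19 to 0.24 in Drosha-null over control. Scaling shifts all genes of a comparison alike, so pairs of the same comparison are not separate checks, and the comparisons share libraries. With the length correction, which is not drawn, the proteasome median lies above the all-gene median of 0.0 instead. It is then 0.11 in Drosha-null over control, 0.05 in Ter119-low over control and 0.05 in Drosha-null over Ter119-low.

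Genes that serve the proteasome without a Psm name were read from lists of their own. Of 11 listed subunits and partners, 0 were called higher and 1 lower in Drosha-null over control (median −0.22), against 12.4% and 7.79% of all measured genes. The called gene was Shfm1, also known as Sem1, a small lid subunit, with 94 counts in the Drosha-null, 149 in the Ter119-low and 175 in the control library (−1.30, −1.68 to −0.93). Pomp, the chaperone that matures the 20S particle, had 54.7, 79.2 and 80.6 CPM (−0.56, −0.72 to −0.40), and the ubiquitin receptor Adrm1 35.6, 47.4 and 50.6 CPM (−0.51, −0.71 to −0.30). The deubiquitinases of the 19S particle, Usp14 and Uchl5, stood at 0.10 and −0.22. In Ter119-low over control, 0 of the 11 were called in either direction, against 5.66% of all measured genes (median −0.02). By total counts the medians of this list and of the shuttle, ubiquitin and gene control lists in Drosha-null over control were 0.21, 0.33, 0.44 and 0.26, beside 0.43 for all measured genes.

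In Drosha-null over control, where 20.2% of all measured genes were called in either direction, 0 of 9 shuttle and p97 genes were called (median −0.11). Lists this short hold few calls at that share. The shuttle receptor Rad23b had 147, 104 and 92.1 CPM in the Drosha-null, Ter119-low and control libraries (0.68, 0.55 to 0.80). Vcp, which encodes the p97 unfoldase, had 303, 299 and 257 CPM (0.24, 0.16 to 0.32). Of 6 ubiquitin and E1 genes 0 were called, against the same 20.2% (median 0.01). The E1 enzyme Uba1 stood at −0.01 and the alternative E1 Uba6 at 0.81 (0.62 to 0.99), and Rps27a, a fusion gene of ubiquitin with a ribosomal protein, at −0.65 (−0.75 to −0.56). Of 7 measured genes on the list of proteasome gene control, of 8 listed, 0 were called, again against 20.2% (median −0.17). Nfe2l1, the factor known to restore proteasome gene transcription when the particle is inhibited, had 59.3, 62.1 and 49.7 CPM (0.25, 0.07 to 0.43), and its relative Nfe2l2 118, 99.6 and 110 CPM (0.10, −0.02 to 0.22). Ngly1, the deglycosylase that Nfe2l1 protein needs for activity, stood at −0.82 (−1.15 to −0.50), and Mafg, a small partner of these factors, at −0.55 (−0.98 to −0.12).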

How the data were processed

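RNA of 3 erythroblast pools was measured by sequencing of total RNA, with 1 library per group, grouped by the labels. Per the file headers, the 2 deposited tables set each cKO library beside the same control and hold expected counts per gene, used here rounded to whole numbers. They also hold FPKM, which the authors made from counts, library size and a length that the values place a median of 63 bases under the listed gene length. Which aligner, counter, annotation and build the authors used is not given in the sources used here; their tables (14640 and 14300 genes) were joined by gene ID into 15058 genes. Control counts differed for 0 of the 13882 shared genes, genes in 1 table alone were given 0 counts in the other, and 21 symbols turned into dates were restored.

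TMM factors came from edgeR 4.0.16 (R 4.3.3). Log2 ratios and conditional binomial intervals were computed with Python 3.11.15, SciPy 1.17.1 and pandas 2.3.3 and were tested on simulated data. A floor of 3 counts equals 0.269, 0.337 and 0.357 CPM in the Drosha-null, Ter119-low and control libraries. No molecular identifiers were counted, so intervals and floors cover counting error only. Alternatives were other scalings (total counts, DESeq2 1.42.0), filters (none, 10 CPM), 2 counts added, the FPKM ratios, a length correction and a 1.5-fold rule. The proteasome genes and lists were chosen with earlier results of these data known. Full values were given by rule for the catalytic subunits, the highest and lowest gene of each role in Drosha-null over control and called genes, and for 4 genes of each pathway list (the 2 most abundant and the 2 with the largest ratios) besides Nfe2l1, Nfe2l2, Pomp and Adrm1. Other genes named were chosen after their values were seen, and marker lists were given as sums. Some genes that the rule names are not reported here.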

Additional observations from a re-analysis of the deposited data

How the results depend on the processing

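No paired analysis was possible because each group has 1 library and no result comes from a test. The median log2 ratio of the proteasome genes changed sign by total counts and by the authors' FPKM, to 0.24 by either in Drosha-null over control, 0.06 in Ter119-low over control and 0.13 in Drosha-null over Ter119-low. Gene length cancels in a ratio of FPKM values and library size remains, so these settings are nearly the same check. Scaling by total counts shifts all genes of a library alike. The median of the proteasome genes also changed sign with the median of each length bin subtracted, which moves genes by different amounts, to 0.11, 0.05 and 0.05. With DESeq2 size factors, no filter, 10 CPM or 2 counts added, the medians lay between −0.20 and −0.17 in Drosha-null over control. They lay between −0.04 and −0.03 in Ter119-low over control, and between −0.21 and −0.19 in Drosha-null over Ter119-low. Keeping genes with whole counts alone could not move these medians. The 1 proteasome gene with fractional counts, Psmb11, was not measured in any comparison. With a 1.5-fold rule 8 genes were called in Drosha-null over control, all lower (17.6% of all measured genes were called lower by that rule), 0 in Ter119-low over control and 4 in Drosha-null over Ter119-low. In the last comparison 1 gene, Psme1, was called higher by total counts, by FPKM and with the length correction. In Drosha-null over control the called gene was Psma8 by total counts and by FPKM and Psme2 with the length correction, in place of Psmg3, and each was called higher. Psma8 rests on 16 counts in the Drosha-null and 5 in the control library. The shares of all measured genes called in these settings are not given, so these calls cannot be read against them. By total counts 8057 of 10885 measured genes stood above 0 in Drosha-null over control. The share of counts in proteasome genes was 0.4392%, 0.4019% and 0.3846% of all gene counts in the Drosha-null, Ter119-low and control libraries, and 0.7985%, 0.8307% and 0.8313% without ribosomal RNA and globin genes. The ratio of Psmb10 to Psmb7 from counts per kilobase was 0.0194, 0.0244 and 0.0265 in the Drosha-null, Ter119-low and control libraries. By FPKM it was 0.019, 0.0239 and 0.026. Both use the same counts and nearly the same lengths, so the recomputed ratio is not a separate check. Genes with 50 or fewer counts, such as Psma8, Psmb10, Psmb11 and Psmg4, are limited by depth.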

Other observations

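Genes of MHC class I antigen presentation, which use peptides made by the proteasome, were mostly rare. Of 8 listed genes 4 were measured in Drosha-null over control, and 1 was called higher and 0 lower, against 12.4% and 7.79% of all measured genes. B2m, the light chain of MHC class I, had 355 counts in the Drosha-null, 149 in the Ter119-low and 125 in the control library (31.9, 16.7 and 14.9 CPM; log2 ratio to the control 1.09, interval 0.80 to 1.40). Erap1, which trims peptides, had 48, 19 and 19 counts (0.91, 0.14 to 1.78). The transporter genes Tap1 and Tap2 had 1, 0 and 1 and 4, 0 and 0 counts, at or near the floor of 3 counts. The B2m counts were thus highest in the Drosha-null library, as were those of Psme1 and Psme2, while Psmb10 had a scaled level there of 3.59 CPM, against 5.95 CPM in the control. Endothelial markers summed to 23.1 CPM in the Drosha-null and 10.7 CPM in the control library, cardiac markers to 29.0 and 8.93 CPM, mesenchymal markers to 11.6 and 8.09 CPM and macrophage markers to 5.83 and 6.31 CPM. Their part in these values was not tested.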
